A study of Mus musculus with 8 samples.

Results

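The genes examined here were those of major histocompatibility complex (MHC) class I and of its peptide supply in the pancreas of NOD mice, set against NOD.B10 mice: the heavy chains *H2-K1*, *H2-D1*, *H2-Q10*, *H2-T22* and *H2-T23*, the light chain *B2m*, the peptide transporter genes *Tap1* and *Tap2*, and the immunoproteasome genes *Psmb8* and *Psmb9*. Members were all probes of the array that carried one of these 10 symbols, and each probe was kept apart and numbered along its gene from 5′ to 3′. There were 20 such probes for 9 genes, among 41174 probes and 21597 gene symbols in all, and *H2-D1* had 0 probes under its own symbol.

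Each of 8 two-color arrays compared the pancreas of 1 female NOD mouse (NOD/LtJ, red dye, Cy5) with one pool of pancreas RNA from 8 female NOD.B10 mice (NOD.B10Sn-H2b/J, green dye, Cy3), and all animals were 12 weeks old. NOD mice develop autoimmune diabetes, and 12 weeks lies before overt disease. NOD.B10 mice share the NOD background but carry the H2b haplotype of the B10 strain in place of the NOD haplotype, H2g7, and do not become diabetic. Replicates 1 to 4 were on 1 slide and replicates 5 to 8 on another. NOD was labeled red throughout, and without a dye swap the strain and the dye cannot be told apart at a single probe. The pool stood for all NOD.B10 mice, so p-values measured the spread between NOD mice and not that between NOD.B10 mice.

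MHC class I molecules show peptides from inside the cell to CD8 T-cells. The proteasome cuts proteins into peptides, and interferon-gamma exchanges some of its catalytic subunits for those encoded by *Psmb8* and *Psmb9*. The transporter made from *Tap1* and *Tap2* carries the peptides into the endoplasmic reticulum, where they are loaded onto a heavy chain paired with beta-2 microglobulin, the product of *B2m*. *H2-K1* and *H2-D1* encode the classical heavy chains, found on nearly every nucleated cell and raised on inflamed islets. *H2-Q10*, *H2-T22* and *H2-T23* encode nonclassical ones: *H2-Q10* a secreted protein made chiefly by the liver, *H2-T22* a ligand of some gamma-delta T-cells, and *H2-T23* Qa-1, a ligand of the NKG2A receptor. All members but *B2m*, which is on chromosome 2, lie on chromosome 17 in or beside the H2 complex, the interval in which the strains differ. NOD mice carry the d allele of the K gene and NOD.B10 mice the b allele, while both carry the b allele of the D gene.

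The difference in haplotype matters for a probe made to a reference sequence. The length of the first H2-K1 probe on the genome (247 bases, of which 60 are probe) left an intron of 187 bases, the length of the intron between exons 2 and 3 of *H2-K1* in the GENCODE annotation. If the exons are spaced on the array's build (mm8) as in that annotation (GRCm38), the second probe lay within exon 3, between bases 132 and 249 of 276, and the third probe within exon 8, the last. Of the 5 member probes with a span above 60 bases, 4 left the length of an annotated intron of their gene, and the second Psmb8 probe (265 bases left) did not, so this placing rests on an assumption. Exons 2 and 3 encode the peptide-binding domains, where alleles differ most. The reference genome is that of C57BL/6, which carries the H2b haplotype, as the NOD.B10 pool does, and the NOD sequence was not used here. Exon 3 of *H2-K1* (chr17:33999271-33999546, GRCm38, minus strand) and of *H2-D1* (chr17:35263839-35264114, plus strand) is printed from the GENCODE transcripts to show how densely class I genes differ in that exon, with capitals at the bases where the 2 genes differ.
H2-K1 exon 3: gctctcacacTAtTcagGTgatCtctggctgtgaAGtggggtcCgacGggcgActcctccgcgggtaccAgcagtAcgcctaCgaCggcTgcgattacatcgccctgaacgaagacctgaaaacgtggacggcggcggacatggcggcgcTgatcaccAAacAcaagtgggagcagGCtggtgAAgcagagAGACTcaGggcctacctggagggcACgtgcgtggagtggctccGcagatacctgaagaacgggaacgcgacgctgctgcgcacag
H2-D1 exon 3: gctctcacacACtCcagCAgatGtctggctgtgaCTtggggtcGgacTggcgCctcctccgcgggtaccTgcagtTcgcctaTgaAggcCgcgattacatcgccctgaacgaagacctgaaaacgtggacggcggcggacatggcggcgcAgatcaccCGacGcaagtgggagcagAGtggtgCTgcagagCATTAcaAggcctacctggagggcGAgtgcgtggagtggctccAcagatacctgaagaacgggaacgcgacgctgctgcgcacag
The genes differed at 33 of 276 bases (88.0% identity). Of those, 17 fell between bases 132 and 249, and each 60-base stretch there held 8 to 15 of them.

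The junctions crossed by the first H2-K1 probe and by the second H2-T22 probe are printed because they place these probes in coding sequence, with the 59 bases of the downstream exon in capitals. The H2-T22 probe spanned 208 bases, which left 148, the intron between exons 5 and 6 of H2-T22-202. The H2-K1 stretch joins chr17:33999734-33999792 to chr17:33999488-33999546, and the H2-T22 stretch joins chr17:36040478-36040536 to chr17:36040271-36040329 (GRCm38, minus strand).
H2-K1 exons 2 and 3: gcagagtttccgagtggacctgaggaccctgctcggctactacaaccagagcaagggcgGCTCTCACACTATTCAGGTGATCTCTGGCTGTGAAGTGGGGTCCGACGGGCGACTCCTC
H2-T22 exons 5 and 6: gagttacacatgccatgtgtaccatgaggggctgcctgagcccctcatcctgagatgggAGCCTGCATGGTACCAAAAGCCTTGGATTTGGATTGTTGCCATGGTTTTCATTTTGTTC
On the same reasoning, the first H2-T22 probe lay in exon 4 and the third in exon 10, the last. Probe sequences were not used here, so a probe can be placed in an exon but its bases cannot be compared between strains.

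In the NOD pancreas, 5 of the 20 member probes were called lower and 0 higher, where a call needed both a 2-fold difference and an adjusted p under 0.01 (limma, Benjamini-Hochberg over all 28105 probes tested). Adjusted p-values of single probes are from this limma fit throughout. Over all tested probes 1.72% were called, 1.41% lower and 0.310% higher. The 5 probes belonged to *H2-T22* (all 3 of its probes), *H2-K1* (1 of 3) and *H2-Q10* (1 of 5). At an adjusted p under 0.01 with no limit on fold, 6 member probes were lower and 1, of *Psmb8*, was higher, against 4.40% and 2.54% of all tested probes (6.94% in either direction). The median of the 20 mean log2 ratios was -0.62, beside -0.09 over all tested probes. All 20 members passed the filter on low signal (red at least 25 on at least 4 arrays). Two-color ratios depended on how the signals were scaled. Median centering took background-subtracted signals and set to 0 each array's median log ratio among spots well above background in both dyes. With it 2 members were called higher and 8 lower. With normexp background correction (offset 50) and loess 0 were called (14 had an unadjusted p under 0.05 in limma). The offset is added to both dyes and draws ratios of dim probes toward 0. Over all tested probes the split of calls was 87 higher and 397 lower, against 5780 and 1307 with median centering.

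**Figure D1:**
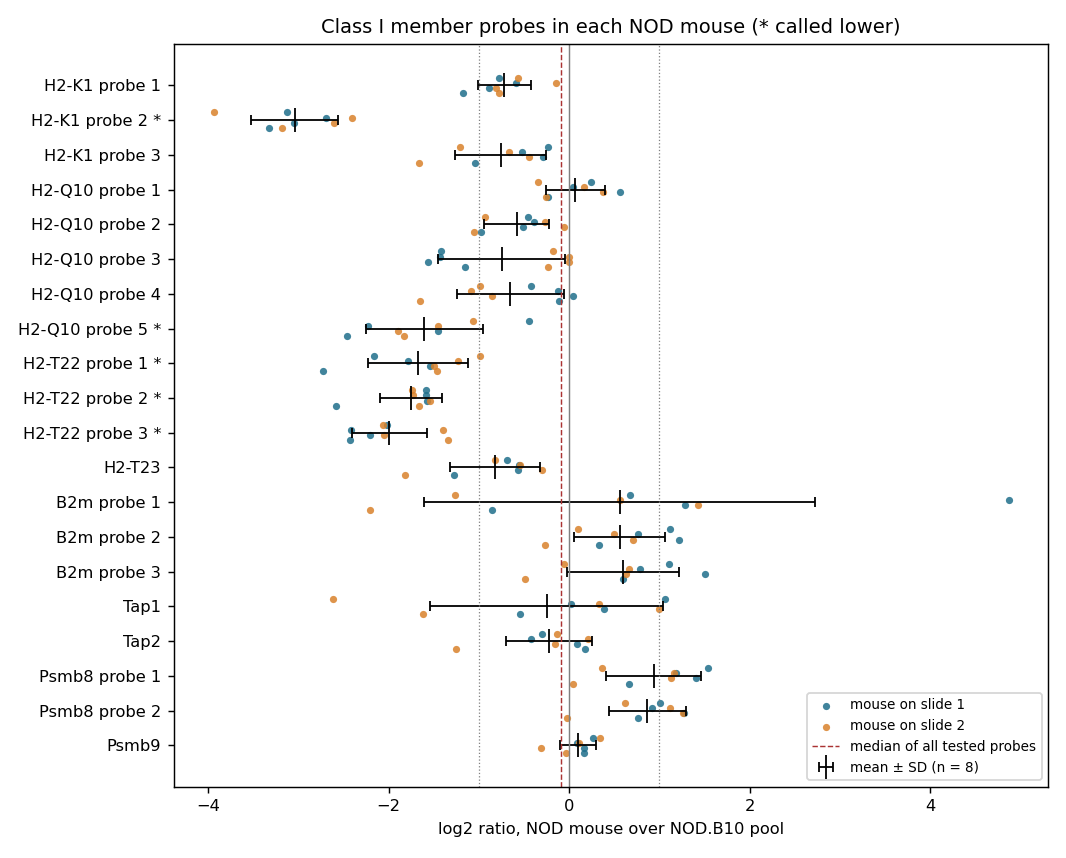
Log2 ratio of NOD over the NOD.B10 pool (horizontal axis) at each of the 20 member probes, with 1 point per mouse, colored by slide, and the mean ± SD of 8 mice in black. The second H2-K1 probe and the 3 H2-T22 probes have nearly all mice left of the 2-fold line at -1, and the Psmb8 probes have most mice right of 0.

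*H2-T22* was lower at every probe. Its brightest probe, in the last exon (A_51_P432538, chr17:35646506-35646565, mm8), had log2 ratios from -2.43 to -1.34 with a median of -2.06, so that NOD signal was 24.02% of the pool at the median. The mean was -1.99 ± 0.41 (SD, n = 8, adjusted p = 0.000364 in limma). All 8 mice were lower than the pool, and red signal (729 to 1716) did not overlap green (3054 to 4996). At the exon 5 to 6 junction (A_51_P432544, chr17:35648330-35648537) the log2 ratio ran from -2.59 to -1.54 with a median of -1.63, averaging -1.75 ± 0.35 (SD, n = 8, adjusted p = 0.000327). At the exon 4 probe (A_52_P197826, chr17:35649533-35649592) it ran from -2.73 to -0.99 with a median of -1.52 and a mean of -1.67 ± 0.55 (SD, n = 8, adjusted p = 0.00172). Red was well above background on 7 arrays at the last exon, 4 at the junction and 5 at exon 4, so the sizes at the junction and exon 4 are less certain. Replicate 1 was the lowest mouse at each of the 3 probes. Within slides the means were -2.27 and -1.71 at the last exon, -1.83 and -1.67 at the junction and -2.05 and -1.29 at exon 4, so both slides were past 2-fold at each probe.

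The differences among the 3 H2-T22 probes did not exceed the spread between mice. The largest of them, exon 4 minus last exon, was 0.32 ± 0.49 on the log2 scale (SD, n = 8, adjusted p = 0.22, exact two-sided sign-flip permutation test, Benjamini-Hochberg over 20 pairs of probes). With median centering exon 4 minus last exon was 1.68 (adjusted p = 0.052, exact permutation) and the junction minus last exon 0.99 (adjusted p = 0.0223, exact permutation), and with normexp and loess all 3 pairs differed (adjusted p = 0.0312 each, exact permutation), exon 4 being highest and the last exon lowest. *H2-T22* has close relatives. Of all 60-base stretches in its exon 4, 15.2% also occur in *H2-T10* transcripts, and of those in its last exon 52.4%, while 0 of 59 across the exon 5 to 6 junction occur in another gene's transcript. The last-exon probe listed accessions of both *H2-T22* and *H2-T10*. All 3 probes lie in the interval in which the strains differ, and the NOD sequence was not used. Lower *H2-T22* transcript and weaker binding of NOD transcript to the probes cannot be told apart here, even where the 3 probes gave similar values.

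**Figure D2:**
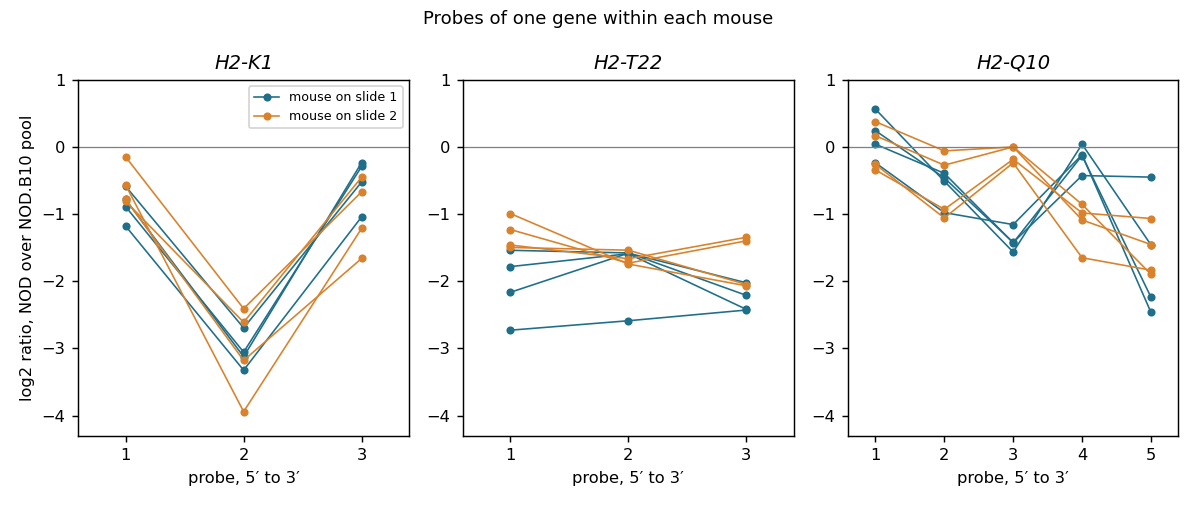
Log2 ratio of NOD over the NOD.B10 pool (vertical axis) at the probes of *H2-K1*, *H2-T22* and *H2-Q10*, ordered along the gene from 5′ to 3′, with 1 line per mouse, colored by slide. In all 8 mice the second H2-K1 probe lies below the first and the third probe, while the H2-T22 lines stay between -2.73 and -0.99.

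*H2-K1* gave different values at its probes. The exon 3 probe (A_52_P50496, chr17:33609797-33609856) ran from -3.94 to -2.41 with a median of -3.09, and NOD signal was 11.8% of the pool at the median. Its mean was -3.04 ± 0.48 (SD, n = 8, adjusted p = 0.000232). Green signal was 925 to 1433, and red was 60.3 to 235, well above background on 3 of 8 arrays and a stand-in for noise on 1, so the size of this ratio was set in part by background. With normexp and loess it was -0.89 (adjusted p = 0.0138). The exon 2 to 3 junction probe (A_52_P474242, chr17:33609987-33610233) ran from -1.18 to -0.15 with a median of -0.78 and a mean of -0.72 ± 0.30 (SD, n = 8, adjusted p = 0.00386), below the 2-fold limit. The probe in the last exon (A_51_P198434, chr17:33606564-33606623, mean of 10 spots per array) had a green median of 18579 and a red median of 12391. Its log2 ratio ran from -1.66 to -0.23 with a median of -0.60 and a mean of -0.76 ± 0.50 (SD, n = 8, adjusted p = 0.0199). All 8 mice were below the pool at each probe, and only the exon 3 probe was called.

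Within each mouse the exon 3 probe of *H2-K1* was lower than its neighbors. The junction probe minus the exon 3 probe was 2.32 ± 0.46 on the log2 scale, and the exon 3 probe minus the last-exon probe was -2.28 ± 0.49 (SD, n = 8, one direction in 8 of 8 mice each, adjusted p = 0.0312 each, exact two-sided permutation test). The difference between the junction and last-exon probes was 0.04 ± 0.57 (adjusted p = 0.94, exact permutation). As the exon 3 probe was near background in red, the size of these differences is uncertain. With normexp and loess the junction minus the exon 3 probe was 0.34 (adjusted p = 0.0312, exact permutation). The exon 3 minus the last-exon probe was -0.04 (adjusted p = 0.91, exact permutation). The offset of that setting draws ratios of dim probes, such as the exon 3 probe, toward 0, so it cannot decide the size of the difference. Of the 60-base stretches of exon 3, 0.461% (1 of 217) occur in another gene's transcript, *H2-D1*. Lower *H2-K1* transcript and weaker binding of NOD transcript to a probe made for another haplotype cannot be told apart at any of these probes. At the last exon of *H2-K1*, where 0 of 392 stretches are shared with another gene, the mean log2 ratio of -0.76 corresponded to a 1.69-fold lower NOD signal.

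*H2-D1* was measured only indirectly. One probe (A_51_P496996, listed as LOC547343, chr17:34874545-34874777) carried an H2-D1 accession beside others, and was looked up after the members' values were seen. Its log2 ratio ran from -1.21 to 0.06, with a mean of -0.54 ± 0.43 (SD, n = 8, adjusted p = 0.0374), and 7 of 8 mice were lower. It was not called.

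*H2-T23* had 1 probe (A_51_P237754, chr17:35638446-35638682), whose span left 177 bases, the intron between exons 5 and 6. Its log2 ratio ran from -1.82 to -0.30 with a median of -0.62 and a mean of -0.82 ± 0.50 (SD, n = 8, adjusted p = 0.0143). All 8 mice were lower, but the probe reached neither the 2-fold limit nor the limit on adjusted p and was not called. It was called with median centering, at -1.47.

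*H2-Q10* had 5 probes, and their values were spread widely. The 3′-most probe (A_51_P230269, chr17:35082473-35082532) ran from -2.46 to -0.45 with a median of -1.65 and a mean of -1.61 ± 0.65 (SD, n = 8, adjusted p = 0.00337), and was called lower. Its red signal (23.99 to 87.3) was well above background on 0 of 8 arrays and was a stand-in for noise on 4, so the size of this ratio was set in part by background. Without replicate 2 or without replicate 3 the call was lost (-1.63 and -1.52, adjusted p = 0.0105 and 0.0107). With median centering this probe was still called, at -1.42. With normexp and loess it was at -0.12 and not called (adjusted p = 0.0886). The first probe (A_52_P428354, chr17:35079015-35079074) was annotated to *H2-Q10* alone. Its green signal was 431 to 677, and red was well above background on 8 of 8 arrays. It had a mean of 0.07 ± 0.33 (SD, n = 8, adjusted p = 0.71), with 5 mice higher and 3 lower, and was not called. The second (A_51_P496997, chr17:35081318-35081377), whose accessions belong to 4 genes (*H2-Bl*, *H2-Q1*, *H2-Q10* and *H2-Q6*), had a mean of -0.58 ± 0.36 and was lower in 8 of 8 mice. Probes 3 and 4 were dim, with green medians of 98.2 and 51.9, and had means of -0.75 ± 0.70 and -0.65 ± 0.59 (SD, n = 8). On probe 3, mice on slide 1 averaged -1.39 and mice on slide 2 averaged -0.11, with stand-in red values on 6 arrays. Probe 4 split the other way, at -0.16 on slide 1 and -1.14 on slide 2.

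Of the 10 pairs of H2-Q10 probes, 5 had an adjusted p under 0.05 (exact permutation): probe 1 against probes 2, 4 and 5, probe 2 against probe 5, and probe 4 against probe 5. With normexp and loess 1 of the 5 remained, probe 1 minus probe 2, which was 0.65 ± 0.22 (SD, n = 8, higher in 8 of 8 mice, adjusted p = 0.0312, exact permutation) and 0.53 with that scaling. The other pairs involve probes 4 and 5, at each of which red was a stand-in for noise on 4 arrays. In the same samples the liver markers were low. Of 20 tested probes of the liver list 8 were called lower and 0 higher, 3 had means above 0, and the median was -1.19. With normexp and loess 0 of the 20 were called. *Alb1*, the albumin gene, was at -2.31 ± 0.60 and *Fgb*, a fibrinogen chain, at -3.05 ± 0.93 (SD, n = 8). Summed over the list, green signal was 7283 to 10612 and red 2121 to 4138, and red was well above background on at least 4 arrays at 6 of the 20 probes. The part of liver RNA in the H2-Q10 values was not tested. In RNA of a whole organ, fewer cells of a type and less RNA per cell cannot be told apart.

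*B2m*, the light chain gene outside the H2 complex, was not called. Its brightest probe (A_51_P129012, chr2:121844106-121844165) had log2 ratios from -0.26 to 1.22 with a median of 0.60 and a mean of 0.56 ± 0.50 (SD, n = 8, adjusted p = 0.0554). A second probe 3′ of it (A_51_P129006, chr2:121844230-121844286, mean of 10 spots) ran from -0.48 to 1.503 with a mean of 0.59 ± 0.62 (adjusted p = 0.0871). They differed by 0.03 ± 0.19, and at both replicate 5 was the lowest mouse and replicate 2 the highest. With median centering and with normexp and loess the brightest probe was at -0.03 and -0.00091, so its direction depended on the scaling. The remaining probe (B2m probe 1, A_52_P105594, chr2:121840304-121840363), annotated to an unclassifiable cDNA, was dim and ran from -2.21 to 4.87, its highest value on replicate 3.

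*Tap1* and *Tap2* were measured at low signal. *Tap1* (A_51_P100327, chr17:33804121-33804180) ran from -2.62 to 1.06 with a median of 0.17 and a mean of -0.25 ± 1.29 (SD, n = 8, adjusted p = 0.73), and red was well above background on 1 array. *Tap2* (A_52_P86176, chr17:33825052-33825639), at the junction of exons 10 and 11, ran from -1.26 to 0.21 with a median of -0.14 and a mean of -0.23 ± 0.47 (adjusted p = 0.37).

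Neither *Psmb8* nor *Psmb9* was called. At the brighter *Psmb8* probe (A_51_P345367, chr17:33811038-33811097) the log2 ratio ran from 0.05 to 1.54 with a median of 1.15 and a mean of 0.94 ± 0.52 (SD, n = 8, adjusted p = 0.011), and 8 of 8 mice were higher than the pool. At the other (A_51_P345366, chr17:33811095-33811419) it ran from -0.03 to 1.27 with a median of 0.96 and a mean of 0.87 ± 0.43 (adjusted p = 0.00691), past the p limit but under 2-fold. Replicate 5 was lowest at both, and without it the brighter probe was called higher (1.06, adjusted p = 0.00674). The pair differed by 0.07 ± 0.25 (adjusted p = 0.78, exact permutation). *Psmb9* (A_51_P369803, chr17:33792517-33792576), at a green median of 3334, ran from -0.31 to 0.34 with a median of 0.14 and a mean of 0.10 ± 0.20 (adjusted p = 0.36). The difference between the genes was not tested.

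The mean log2 ratio over the 23 tested leukocyte probes was 0.05 in replicate 5, the lowest, and 1.05 in replicate 4, the highest. Of the 23 probes 0 were called by limma (12 had an unadjusted p under 0.05, and 0 were called with the plain one-sample statistic), 15 had means above 0, and the median was 0.22. Means of single probes ran from -0.78 to 2.30. Their summed signal was 6214 to 21492 in red and 4298 to 10385 in green. Red was well above background on at least 4 arrays at 8 of the 23 probes, and on 0 arrays for the B-cell gene *Cd79a* and the myeloid gene *Itgam*. Replicate 5 was also the lowest mouse at 10 of the 20 member probes, those of *B2m* and *Psmb8* and some of the heavy chains among them. Its mean over the members (-1.14) was the lowest. It was lowest as well in the lists of the proteasome (-0.13), class I regulators (-0.33) and CD8 and class I receptors (-0.33). In the other pathway lists and the pancreas, liver and lymph node lists another mouse was lowest. The share of all tested probes at which replicate 5 was lowest was not counted. Whether infiltrating cells account for the *B2m* and *Psmb8* values was not tested. The pancreas markers were present, with red well above background on at least 4 arrays at 15 of 16 tested probes and mean red signals up to 778943.

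**Figure D3:**
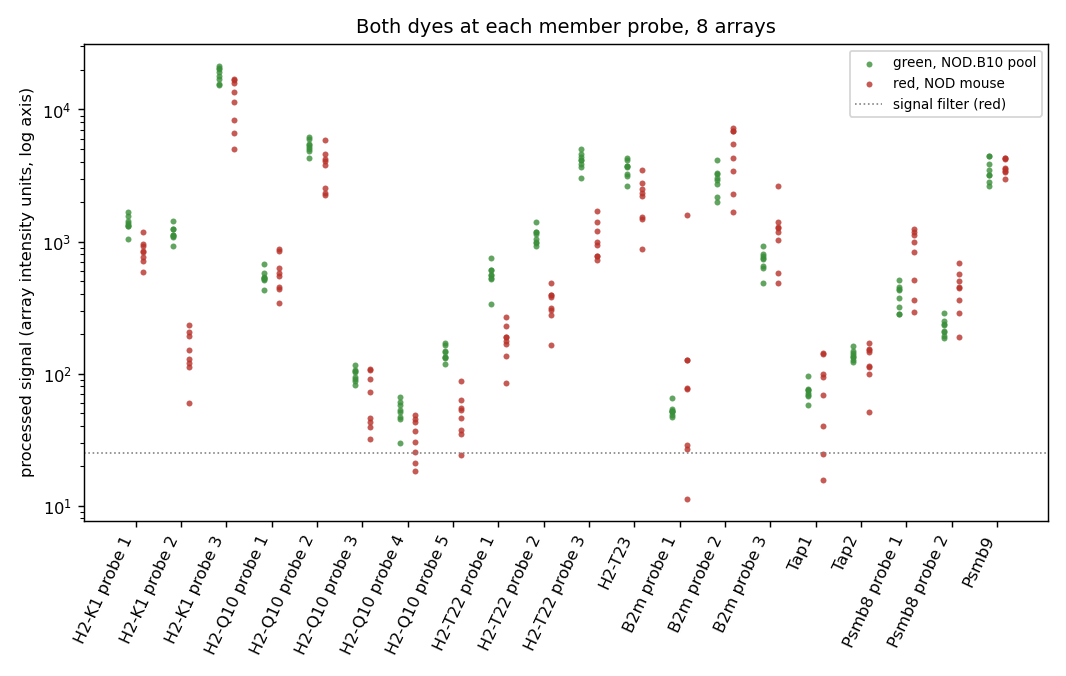
Processed signal on a logarithmic axis for the NOD.B10 pool (green) and the NOD mouse (red) at each member probe, 1 point per array, with the red filter of 25 as a dotted line. Both dyes overlap at *Psmb9* and do not overlap at the 3 H2-T22 probes and the second H2-K1 probe.

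The rest of the class I pathway was called at a share near that of the whole array. Across 6 lists of partner genes, 111 probes were tested, and 1 (0.901%) was called, lower (*Mr1*), by limma, against 1.72% of all tested probes. At an adjusted p under 0.01 with no limit on fold there were 5 higher and 4 lower (8.11%, against 6.94% of all tested probes). The median of the 111 was -0.01. The highest and lowest gene of each list are given by the brightest tested probe of each gene, and dimmer probes of some genes lay further out. Among 21 probes of other heavy chains in the H2 region 0 were called (5 had an unadjusted p under 0.05, and 0 were called with the plain statistic). Median centering called probes of *H2-M10.3*, *H2-M10.4*, *H2-M10.5*, *H2-M10.6*, *H2-T3*, *H2-T24*, *H2-Bl* and *H2-M3* higher, and of *H2-Q1* and *H2-Q5* lower. The ratio of processed signals called *H2-M10.3*, *H2-M10.5* and *H2-M10.6* higher. By brightest probe the highest was *H2-M3*, which presents formylated peptides, at 0.42 ± 0.59, and the lowest *H2-M10.2* at -0.93 ± 0.59 (SD, n = 8, adjusted p = 0.0169, stand-in red on 6 arrays).

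Among 15 probes of peptide loading partners the highest gene by brightest probe was *Canx* (calnexin, a chaperone of new heavy chains) at 0.52 ± 0.25 (adjusted p = 0.00688, higher in 8 of 8 mice) and the lowest *Ugcgl1*, a folding sensor of glycoproteins, at -0.43 ± 0.36. In the proteasome list, 26 probes, *Psme3*, a proteasome activator, was highest by the same measure at 0.44 ± 0.10 (adjusted p = 0.000667, 8 of 8 mice) and *Psmb7*, a catalytic subunit of the constitutive proteasome, lowest at -0.32 ± 0.19. With other scaling *Psme3* was below 0, at -0.27 with median centering and -0.23 with normexp and loess. Neither list had a call (2 and 11 probes had an unadjusted p under 0.05, and 0 were called with the plain statistic).

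Among 12 probes of class I-like molecules encoded elsewhere, *Mr1*, which presents vitamin B metabolites, was called lower at -1.15 ± 0.57 (SD, n = 8, adjusted p = 0.00688), with red well above background on 0 arrays and a stand-in for noise on 4. The call was lost without any one mouse except replicate 3, and with the plain statistic. It was also lost with median centering, at -0.39, and with normexp and loess, at -0.04. The other *Mr1* probe, with stand-in red on all 8 arrays, was at -0.30 ± 0.45 (adjusted p = 0.20). The highest by brightest probe was *Azgp1*, a secreted class I-like protein, at 0.50 ± 0.19 (adjusted p = 0.00314), and the lowest of the brightest probes was *Cd1d1*, which presents lipids, at -0.96 ± 0.71. Of 25 probes of class I regulators, the highest gene by brightest probe was *C2ta*, the class II transactivator, at 0.96 ± 0.71 and the lowest *Stat2*, of the interferon response, at -0.72 ± 0.63. Of 12 probes for CD8 and class I receptors the highest gene by brightest probe was *Klrd1* (CD94) at 1.32 ± 1.46 and the lowest *Klrk1* (NKG2D) at -0.50 ± 0.55. Both had red well above background on 0 arrays, with stand-in red on 3 and 6, and with median centering *Klrk1* was at 1.11, so neither the size nor the direction of the latter was settled. These last 2 lists had 0 calls (12 and 4 probes had an unadjusted p under 0.05, and 0 were called with the plain statistic).

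**Figure D4:**
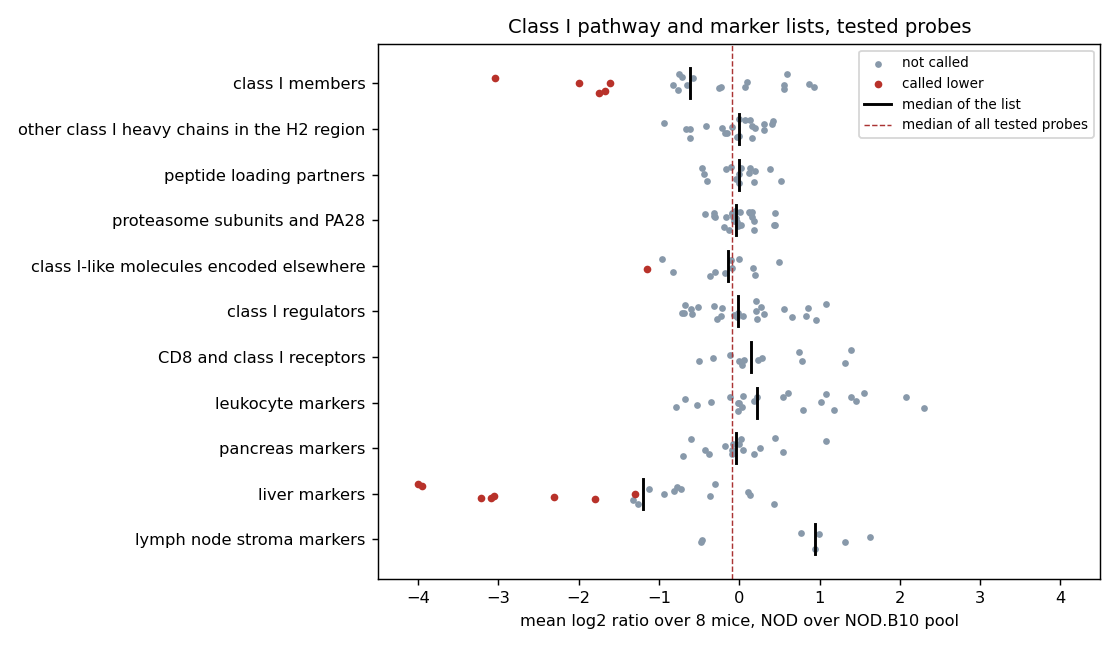
Mean log2 ratio over 8 mice of every tested probe in each list, with called probes in red, the list's median as a black bar and the median of all tested probes (-0.09) as a dashed line. The members (median -0.62) and the liver markers (median -1.19) hold 5 and 8 calls, the class I-like list 1, and the other lists none.

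How far each member depended on the scaling of the signals differed from gene to gene. The 3 H2-T22 probes were called with the deposited ratio, the ratio of processed signals and median-centered signals (-1.35, -2.04 and -3.03 from 5′ to 3′). With normexp and loess they were at -0.32, -0.70 and -1.48, still below 0 but with adjusted p from 0.0108 to 0.0544, so no call was made. With median centering all 3 H2-K1 probes were called, at -1.33, -3.30 and -1.06. The same setting called the second Psmb8 probe (1.13) and the dim B2m probe (1.68) higher. The brighter Psmb8 probe instead dropped to 0.37 with median centering (adjusted p = 0.28) and to 0.25 with normexp and loess (adjusted p = 0.19), while *Psmb9* and the brightest *B2m* probe crossed 0.

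**Figure D5:**
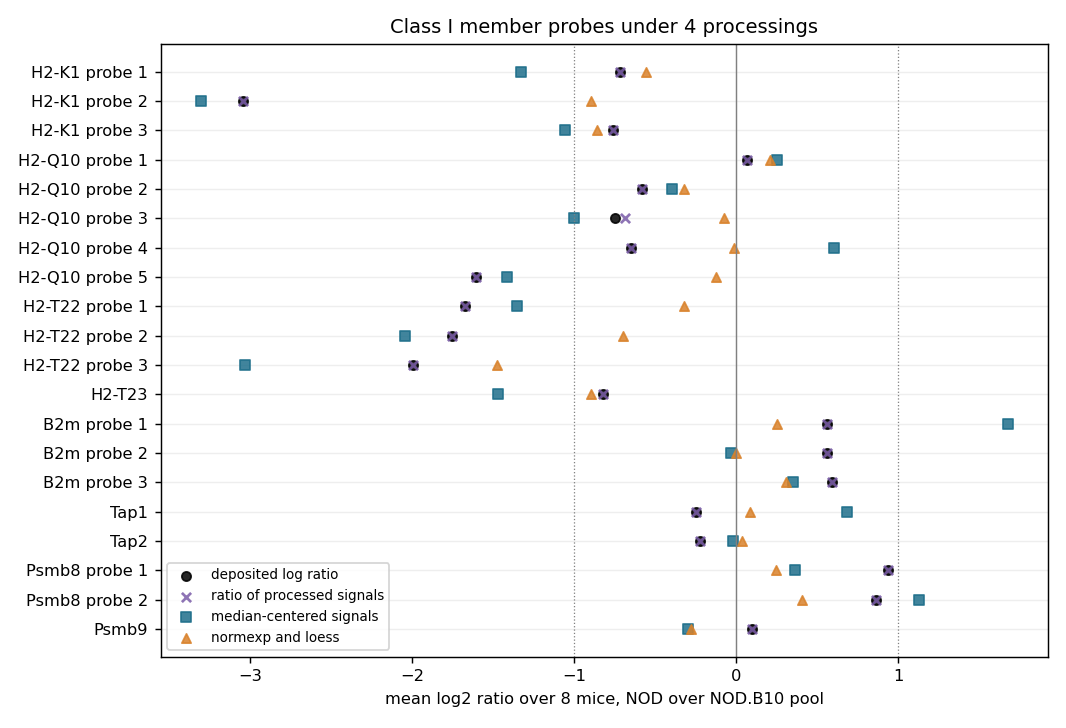
Mean log2 ratio over 8 mice of each member probe (horizontal axis) under the deposited log ratio and 3 other ways of making the ratio. The 3 H2-T22 probes lie below 0 in each, from -3.03 to -0.32. *Tap1*, *Tap2*, *Psmb9*, H2-Q10 probe 4 and the brightest *B2m* probe lie on both sides of 0, while the other *B2m* probes stay above it.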

How the data were processed

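RNA from pancreas of 8 NOD mice was compared on Agilent 4×44K two-color arrays with one NOD.B10 pool. The authors used Agilent Feature Extraction 10.7.3.1, and the deposited values are a log10 ratio of red over green per spot and, per dye, the processed intensity (background-subtracted and dye-normalized), with probe positions on mm8. The deposited background-subtracted, mean and background intensity and the flags for stand-in values, saturated and irregular spots were used in alternatives. Red was well above background at 21.6% to 35.3% of spots and green at 57.6% to 60.7%, which limits the precision at dim probes.

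Ratios were put on the log2 scale (times 3.322), and spots of a probe were averaged. Probes with a symbol and red signal of at least 25 on at least 4 arrays were tested with limma 3.58.1 (R 4.3.3 with data.table version 1.17.8), one-sample and moderated, with Benjamini-Hochberg adjustment. The test was checked on simulated data. Pairs of probes of a gene were compared by all 256 sign flips of 8 mice, whose smallest p is 0.00781, with adjustment over 20 pairs. Tables and plots used Python 3.11.15, numpy 2.4.6, pandas 2.3.3 and matplotlib 3.10.9. Exons and transcripts came from GENCODE vM21 and accessions were matched to RefSeq genes, both on GRCm38. No position was converted between builds.

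The members and lists were chosen with earlier results of these data known. Genes named are all member probes and, from each pathway list, those called and the highest and lowest by mean log2 ratio at the brightest tested probe. Marker genes and *H2-D1* by accession were named beyond that rule. Results of some listed genes are not reported here. A lymph node stroma list had 0 calls among 7 tested probes (4 had an unadjusted p under 0.05, limma; 0 were called with the plain statistic) and a median of 0.95. The pancreas list had a median of -0.04 and 0 calls of 16 (4 with an unadjusted p under 0.05; 0 with the plain statistic). Replicate numbers name mice, and nothing says the arrays of a slide shared more than the slide.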

Additional observations from a re-analysis of the deposited data

Results flagged for a closer look

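Of 33 probes examined for a mouse far from the other 7, 3 were marked, and chance marks about 1 in 20 groups. The exon 5 to 6 junction probe of *H2-T22* was at -2.59 in replicate 1, beside -1.74 to -1.54 in the other mice, and replicate 1 was also lowest at the other H2-T22 probes. *Tap2* was at -1.26 in replicate 5, beside -0.43 to 0.21. *Stat2* was at -2.14 in replicate 8, beside -0.99 to -0.17.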

How the results depend on the processing

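Of 20 member probes 5 were called, and the count was 4 to 6 with a mouse left out and 5 with no signal filter, the plain statistic, processed signals, irregular spots left out, slide as a covariate or an adjusted p of 0.05. It was 7 at a fold of 1.5 (6 lower, 1 higher), 3 (the H2-T22 probes) where red had to be well above background on at least 4 arrays, 10 with median centering and 0 with normexp and loess. The pathway count of 1 (lower) was 0 with the plain statistic and with normexp and loess. It was 10 with processed signals (9 higher, 1 lower) and 28 with median centering (24 higher, 4 lower). At an adjusted p of 0.05 it was 2 and at a fold of 1.5 it was 4. With a mouse left out it was 0 to 1 (0 without replicate 1, 2, 4, 6, 7 or 8). Over all probes, 484 calls became 133 with red well above background, 308 with the plain statistic, 4160 with processed signals, 7087 with median centering, 7 with normexp and loess, 919 at an adjusted p of 0.05, 1109 at a fold of 1.5 and 221 to 349 with a mouse left out (fewest without replicate 3). Median centering also moved the median of all tested probes from -0.09 to 0.07.

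The direction of several uncalled members turned. With median centering H2-Q10 probe 4 was at 0.60, the brightest *B2m* probe at -0.029, *Tap1* at 0.69 and *Psmb9* at -0.30. With normexp and loess that *B2m* probe was at -0.00091, *Tap1* at 0.089, *Tap2* at 0.037 and *Psmb9* at -0.28. With a mouse left out H2-Q10 probe 1 was at -0.0024 to 0.13, the dim *B2m* probe at -0.054 to 0.96 and *Tap1* at -0.44 to 0.089. Among differences between probes, median centering turned *H2-K1* probe 1 minus 3 (-0.27), *H2-Q10* probe 1 minus 4 (-0.35) and 2 minus 4 (-0.998), the dim minus the 10-spot *B2m* probe (1.33) and *Psmb8* probe 1 minus 2 (-0.76). Normexp and loess turned *H2-Q10* probe 2 minus 3 (-0.25), minus 4 (-0.30) and minus 5 (-0.19), and *Psmb8* probe 1 minus 2 (-0.16). The cause was not tested. NOD mice could not be paired with single NOD.B10 mice, because every NOD mouse was compared with the same pool and the numbers only name mice. Only the probes of a gene were compared within a mouse.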
